A study of Mus musculus with 6 samples.

Results

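The genes described here are 10 that mark leukocytes as a whole or macrophages: Ptprc, Cd68, Csf1r, Mrc1, Itgam, Tyrobp, Fcer1g, Laptm5, Lsp1 and Coro1a. They were chosen by name, as every probe set (the group of probes that reads a transcript) whose only symbol in the annotation of the Mouse430_2 platform is one of them, with the lysozymes left out. That gave 19 probe sets of 45037 and 10 genes of 18193. Both groups were whole lungs of mouse fetuses at E18.5, shortly before birth, on a mixed background of FVB/N and B6. The 3 Scap_ko samples had the gene of the SREBP cleavage-activating protein, Scap, which lets the SREBP factors switch on lipid synthesis, deleted in respiratory epithelial cells (Scap d/d), and the 3 Scap_control samples were the controls. The promoter that drove the deletion and the genotype of the controls are not given in the sources used here. Leukocytes were not the cells in which Scap was deleted, so the comparison shows how immune-cell transcripts read in a lung whose epithelium lacked Scap. Nothing in the labels says that the 3 samples of a group are separate animals, so the p-values speak only for the variation among these 6 arrays, part or all of which could be technical.

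Fetal lung receives its first macrophages from the yolk sac and fetal liver, and these cells settle in the interstitium before birth. Around the first breaths, fetal monocytes turn into alveolar macrophages, which take up and break down surfactant lipids, and growth factors from the epithelium direct that step. The growth factor receptor Csf1r keeps macrophages alive. Tyrobp and Fcer1g are short membrane adaptors that pass the signals of many myeloid receptors to the kinase Syk through a tyrosine motif, the ITAM. In whole lung these transcripts come from a minority of cells, and a change in the number of leukocytes cannot be told apart from a change in RNA per leukocyte.

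Each array gave a linear signal in arbitrary units, with array medians between 498.5 and 513 in Scap_ko and between 490.9 and 530.5 in Scap_control lungs. Each gene was represented by its brightest probe set and tested with limma when its mean signal reached the median probe set of the platform (497.8), which left 10972 genes. The arrays numbered 3 of both groups stood apart from the other 4 on the first principal component, which held 36.6% of the variance, so results are also given without them. The targeted transcript Scap read 1847, 3286 and 2702 in Scap_ko lungs, against 7264, 4195 and 3080 in Scap_control lungs, lower on average with overlapping groups. Its probe sets cannot be placed relative to the deleted part here, and cells outside the epithelium also make Scap, so these readings test the labels only weakly.

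The 9 tested leukocyte transcripts averaged between 91.1% (Csf1r) and 147.3% (Lsp1) of control in Scap_ko lungs, the dim Itgam stood at 71.3%, and Lsp1 was the only member whose groups did not overlap. Of the 10 genes, 9 read above the brightness limit on all 6 arrays and were tested, and Itgam read below it on all 6. Of these 9, 0 passed an adjusted p of 0.05 in either direction, against 0.00911% of all tested genes that passed as higher and 0% that passed as lower. At an unadjusted limma p of 0.05, 1 of the 9 was higher (Lsp1) and 0 were lower, where the shares over all tested genes were 2.88% and 3.04%. The difference was positive in 7 of 9 members and in 51.7% of all tested genes. The median member had a log2 difference of 0.15, 111.1% of control, against 0.01 over all tested genes. The median moved with single arrays: it was 0.03 without Scap_ko replicate 3, 0.09 without Scap_control replicate 2, 0.23 without Scap_control replicate 3 and 0.26 without Scap_ko replicate 1. Without both arrays numbered 3 it was 0.10, with 6 of 9 members positive.

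**Figure D1:**
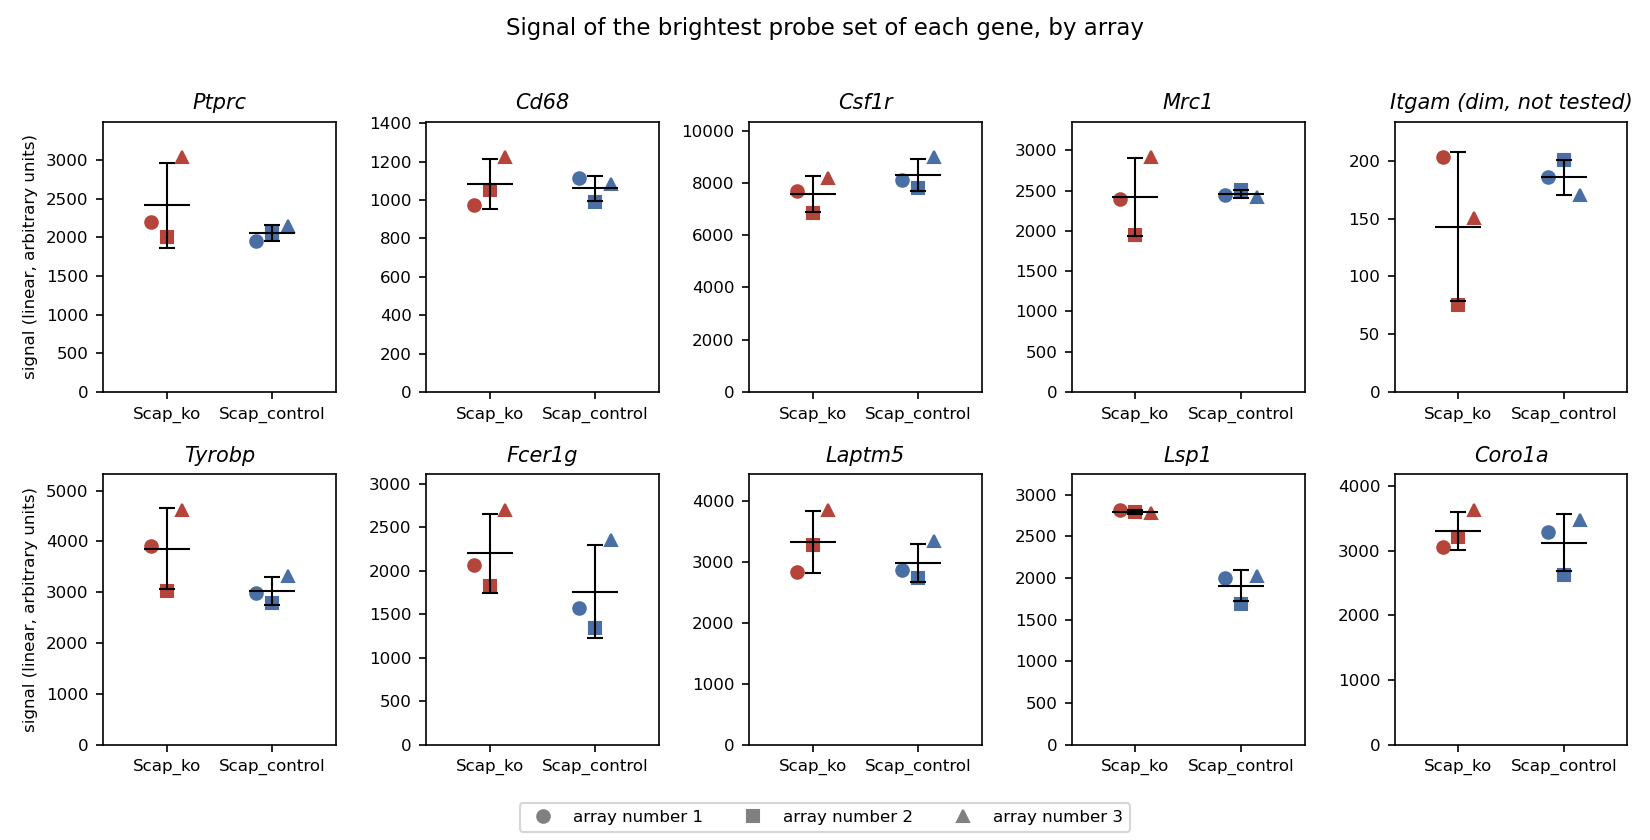
Linear signal (vertical axis, arbitrary units, from 0) of the brightest probe set of each of the 10 genes in the 3 Scap_ko arrays (red, left) and the 3 Scap_control arrays (blue, right), with the marker shape giving the array number and black bars the mean and SD. Lsp1 is the panel in which all Scap_ko arrays, 2777 to 2823, lie above all Scap_control arrays, 1693 to 2028, while the other groups overlap.

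Lsp1, a leukocyte protein that binds actin filaments and steers migration, and that endothelial cells also make, had the smallest p of the members. Lsp1 read 2823, 2792 and 2777 in Scap_ko lungs, against 1997, 1693 and 2028 in Scap_control lungs. The Scap_ko arrays were nearly identical to each other and every one of them lay above every Scap_control array. Over all tested genes, 6.11% had all Scap_ko arrays above all Scap_control arrays and 5.72% had them all below. The means were 2797 ± 23.1 in Scap_ko and 1906 ± 185 in Scap_control lungs (SD, n = 3 each), a log2 difference of 0.56 (SE 0.10, 95% interval 0.32 to 0.80) or 147.3% of control. The unadjusted limma p of Lsp1, 0.000782, ranked 17 of 10972 genes, and the limma adjusted p was 0.505. Its positive difference ranked 63 of 10972 from the highest.

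The Lsp1 difference was as large in the arrays that do not stand apart. Without both arrays numbered 3 it was 0.61 (adjusted p = 0.441 by limma), and leaving out each array in turn gave 0.48 to 0.61. Lsp1 never passed the threshold under the settings tried, where its limma adjusted p lay between 0.179 and 0.999. The gene, which lies on chromosome 7 at positions 142458223 to 142494868 of GRCm38.p6, has a single probe set here, so no second reading of the transcript was at hand.

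Ptprc encodes CD45, the tyrosine phosphatase found on all nucleated blood cells, and is the most general leukocyte marker of the set. Ptprc read 2196, 2009 and 3043 in Scap_ko lungs, against 1951, 2062 and 2152 in Scap_control lungs. Scap_ko replicate 3 alone stood high, and the remaining Scap_ko arrays lay close to the controls. The means were 2416 ± 551 in Scap_ko and 2055 ± 101 in Scap_control lungs (SD, n = 3 each), a log2 difference of 0.21 (SE 0.16, 95% interval -0.16 to 0.58, limma adjusted p = 0.902). Without Scap_ko replicate 3 the Ptprc difference was 0.03.

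Laptm5 encodes a lysosomal membrane protein of blood cells that lowers antigen receptor levels. Laptm5 read 2841, 3280 and 3863 in Scap_ko lungs, against 2872, 2740 and 3339 in Scap_control lungs, with the groups interleaved. The log2 difference was 0.15 (SE 0.14, limma adjusted p = 0.928). This reading comes from a probe set of the _x_at type, which may bind other transcripts. The next brightest, of the _s_at type, gave 0.16 and the third 0.07. The remaining pair of Laptm5 probe sets lay below the brightness limit, with differences of 0.43 and -1.91, the second of them set by a reading of 4.3 in Scap_ko replicate 3.

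Coro1a encodes coronin 1A, which remodels actin at the leukocyte cortex and is needed for T cell survival. Coro1a read 3062, 3219 and 3637 in Scap_ko lungs, against 3288, 2621 and 3474 in Scap_control lungs. These groups overlapped throughout, with a log2 difference of 0.09 (SE 0.13, 95% interval -0.23 to 0.40). A second bright probe set gave -0.04, and the dim one, at 5.3 to 150.5 in Scap_ko and 15.7 to 190.9 in Scap_control lungs, carried no usable difference.

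The start regions of Ptprc, Fcer1g and Laptm5 are shown because these genes varied together from array to array and because PU.1, the transcription factor of the myeloid lineage, binds a GAGGAA core. Each is the 300 bases around a RefSeq start in GRCm38.p6, 250 before and 50 after it, 5′ to 3′ on the gene's strand, with the core on either strand in capitals. They lie at chr1:138175256-138175555 (minus strand, the outer of the Ptprc windows at hand), chr1:171234300-171234599 (minus strand) and chr4:130913066-130913365 (plus strand).
Ptprc: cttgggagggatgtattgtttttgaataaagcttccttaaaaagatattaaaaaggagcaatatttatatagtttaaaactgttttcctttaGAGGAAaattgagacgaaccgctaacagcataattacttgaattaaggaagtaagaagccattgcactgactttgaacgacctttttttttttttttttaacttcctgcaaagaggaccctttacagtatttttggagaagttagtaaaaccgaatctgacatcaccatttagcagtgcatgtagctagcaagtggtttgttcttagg
Fcer1g: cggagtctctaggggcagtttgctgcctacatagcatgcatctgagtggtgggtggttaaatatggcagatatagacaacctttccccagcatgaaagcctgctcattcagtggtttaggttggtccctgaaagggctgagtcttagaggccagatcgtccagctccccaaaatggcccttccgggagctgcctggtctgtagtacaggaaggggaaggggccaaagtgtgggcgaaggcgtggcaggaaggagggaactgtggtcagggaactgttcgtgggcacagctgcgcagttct
Laptm5: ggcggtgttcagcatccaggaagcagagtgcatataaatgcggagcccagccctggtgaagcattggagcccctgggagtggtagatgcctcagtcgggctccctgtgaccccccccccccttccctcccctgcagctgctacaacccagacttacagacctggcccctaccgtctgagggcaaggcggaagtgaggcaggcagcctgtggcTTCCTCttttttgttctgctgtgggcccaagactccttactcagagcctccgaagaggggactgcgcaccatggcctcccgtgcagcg
The Ptprc window holds 1 core on the gene's strand and the Laptm5 window holds 1 on the opposite strand, while the Fcer1g window holds none. Start windows were at hand for 7 of the 10 genes: Ptprc, Cd68, Mrc1, Itgam, Fcer1g, Laptm5 and Coro1a. Of their 9 windows 5 hold the core, with 2 in Cd68, 3 in Mrc1 and 3 in Itgam, against 28.3% of all 32851 windows. The longer GAGGAAGT, which contains the core, is in 0 of the 9 and in 3.2% of all windows. These are matches of letters, not binding sites.

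Among the members, none of the macrophage genes Csf1r, Cd68, Mrc1 and Itgam showed a difference beyond the spread of the arrays. Csf1r, the receptor of the growth factors Csf1 and Il34, read 7674, 6854 and 8189 in Scap_ko lungs, against 8126, 7785 and 8992 in Scap_control lungs. Each Scap_ko array lay below the control of the same number, although the groups overlapped. The means were 7573 ± 673 in Scap_ko and 8301 ± 622 in Scap_control lungs (SD, n = 3 each), a log2 difference of -0.13 (SE 0.11, 95% interval -0.39 to 0.12, limma adjusted p = 0.917). The other Csf1r probe sets did not share that sign: the _s_at set gave 0.14 and the _a_at set 0.02. Its ligand genes, named after their values were seen, averaged 1286 in Scap_ko and 1338 in Scap_control lungs for Csf1, and 858.8 in Scap_ko and 778.6 in Scap_control lungs for Il34. Without both arrays numbered 3 their log2 differences were -0.19 for Csf1 and -0.01 for Il34, against -0.05 and 0.12 with all arrays.

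Cd68, a scavenger receptor-like protein of macrophage lysosomes, read 975.5, 1051 and 1225 in Scap_ko lungs, against 1113, 988.9 and 1085 in Scap_control lungs. Its log2 difference was 0.02 (SE 0.11, 95% interval -0.24 to 0.29), the smallest in size of the 9 tested. Mrc1, the mannose receptor of tissue macrophages that clears glycoproteins, read 2396, 1949 and 2917 in Scap_ko lungs, against 2448, 2511 and 2420 in Scap_control lungs. The Scap_ko arrays of Mrc1 spread to both sides of the 3 tightly placed controls, with SDs of 485 in Scap_ko and 47.0 in Scap_control lungs. Its log2 difference was -0.04 (SE 0.15, 95% interval -0.39 to 0.30).

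Itgam encodes the integrin chain CD11b, which pairs with Itgb2 to form a complement receptor on monocytes, neutrophils and some macrophages. Itgam read 203.4, 75.5 and 150.6 in Scap_ko lungs, against 186.4, 200.9 and 170.5 in Scap_control lungs. All 6 readings lay below the brightness limit of 497.8, so the gene was not among those tested and whether its probe set lay above background is not known. With every probe set in the fit, its log2 difference was -0.49 (SE 0.38, limma adjusted p = 0.980). In that fit of 45037 probe sets, 0% passed an adjusted p of 0.05, and so none of the 19 member probe sets did. Of the 19, 14 lay above the limit and 5 below it. The partner chain Itgb2, named after its values were seen, averaged 2056 in Scap_ko and 1791 in Scap_control lungs.

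**Figure D2:**
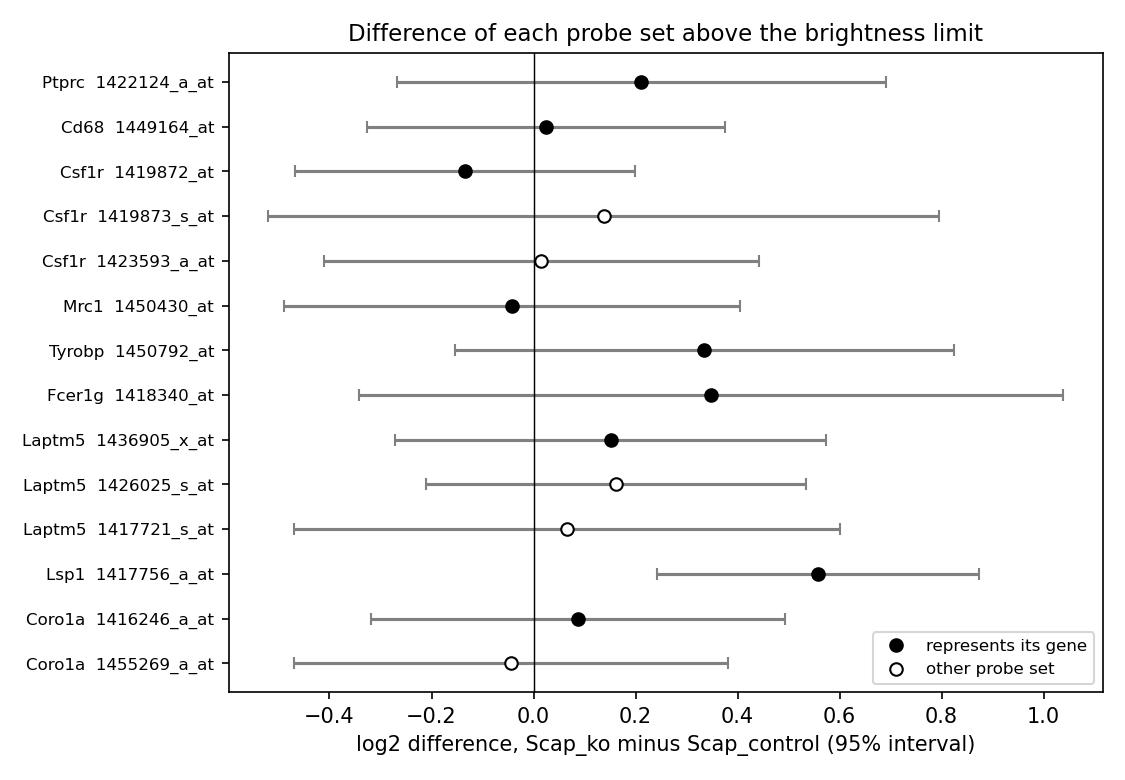
Log2 difference, Scap_ko minus Scap_control (horizontal axis, with 95% interval from limma over all 45037 probe sets), of the 14 member probe sets above the brightness limit; filled points represent their gene and open points are its other probe sets. The Lsp1 interval lies above 0, the other 13 cross it, and the Csf1r probe sets fall on both sides.

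The ITAM adaptors read higher in Scap_ko lungs in each same-numbered pair, with overlapping groups. Tyrobp, also called DAP12, couples receptors such as Trem2 to Syk. Tyrobp read 3917, 3031 and 4624 in Scap_ko lungs, against 2974, 2779 and 3311 in Scap_control lungs. Only Scap_ko replicate 2 lay within the range of the controls. The means were 3857 ± 799 in Scap_ko and 3021 ± 269 in Scap_control lungs (SD, n = 3 each), a log2 difference of 0.33 (SE 0.16, 95% interval -0.05 to 0.72, limma adjusted p = 0.859). Without Scap_ko replicate 3 it was 0.19, and without Scap_ko replicate 2 it was 0.50.

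Fcer1g encodes the gamma chain shared by the high-affinity IgE receptor and the activating Fc gamma receptors. Fcer1g read 2068, 1825 and 2703 in Scap_ko lungs, against 1573, 1336 and 2359 in Scap_control lungs. The array numbered 3 was the highest of its group on both sides, so the groups overlapped while each pair ran the same way. The means were 2199 ± 453 in Scap_ko and 1756 ± 535 in Scap_control lungs (SD, n = 3 each), a log2 difference of 0.35 (SE 0.23, 95% interval -0.19 to 0.89, limma adjusted p = 0.899). It was 0.17 without Scap_control replicate 2, 0.19 without Scap_ko replicate 3 and 0.58 without Scap_control replicate 3.

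Lsp1, Tyrobp and Fcer1g, 3 of the 9 tested members, were higher in Scap_ko in all 3 pairs, as were 15.6% of all tested genes. With the replicate number as a block the unadjusted limma p was 0.00144 for Lsp1, 0.0213 for Tyrobp and 0.0128 for Fcer1g, so that 3 of 9 members were higher at 0.05 against 4.18% of all tested genes. The smallest limma adjusted p with the block was 0.312, that of Lsp1. Across genes the data set only the arrays numbered 3 apart, so the pairs numbered 1 and 2 rest on the titles. Without both arrays numbered 3, Lsp1 and Fcer1g were higher at an unadjusted limma p of 0.05, with 0.00343 and 0.0232, against 3.85% of all tested genes.

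The members also varied with the single array. Scap_ko replicate 3 was the highest array for 7 of the 9 tested members, whereas it was the highest for 18.8% of all tested genes. The exceptions were Lsp1, highest in Scap_ko replicate 1, and Csf1r, highest in Scap_control replicate 3. Scap_control replicate 2 was the lowest array for 5 of the 9, and for 24.1% of all tested genes. As log2 deviations from each gene's mean, the members averaged 0.02, -0.06 and 0.30 in Scap_ko lungs, against -0.09, -0.21 and 0.05 in Scap_control lungs. Scap_ko replicates 1 and 2 thus lay inside the range of the controls and replicate 3 above it, while in each of the 3 same-numbered pairs the Scap_ko array was the higher.

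Fcer1g, Tyrobp, Ptprc and Laptm5 followed the mean of the other members most closely, with Pearson r of 0.91, 0.90, 0.86 and 0.82 over the 6 arrays. Coro1a stood at 0.78 and Cd68 at 0.69. Lsp1, Mrc1 and Csf1r followed it least, at 0.48, 0.44 and 0.26. These values describe 6 arrays of whole lung that share their scaling and the group difference. The genes outside the set with the most similar array pattern, each at r of 0.97 to 0.99, were Bcar3, Mul1, Rbm41, Gstm5, Jtb, Ift27, Plek and Stag2. They are the closest of 10972 genes over only 6 arrays, so their r is high partly by that choice. Of these 8, Plek encodes pleckstrin, a protein of platelets and leukocytes. None of the 8, Plek included, is in the wider lists below. Mul1 averaged 483.9 in Scap_control lungs, below the brightness limit.

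**Figure D3:**
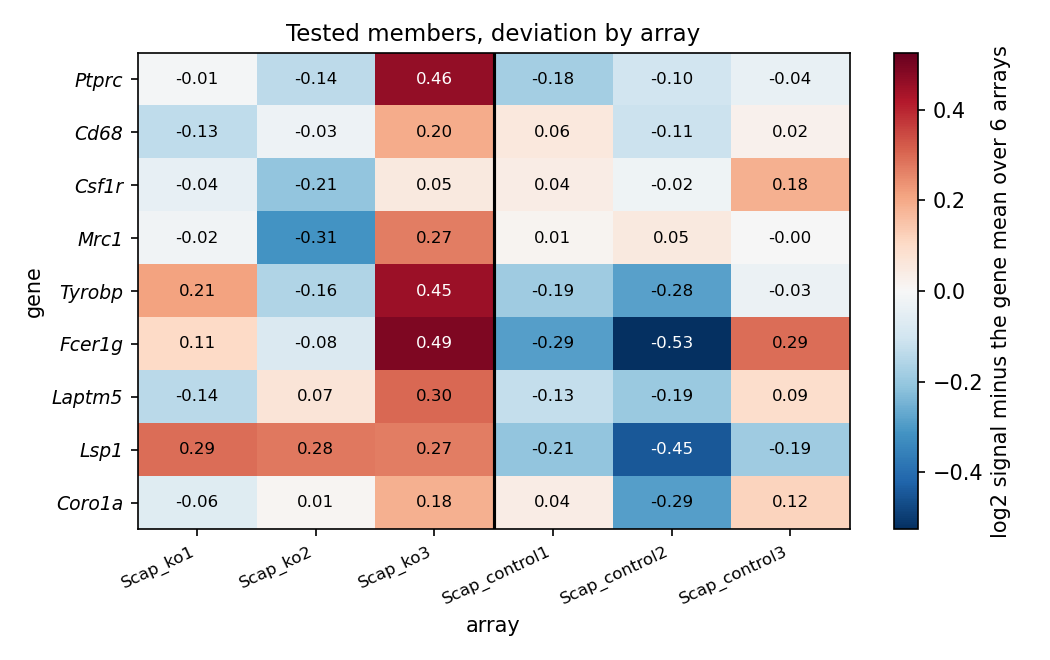
Deviation of log2 signal from the gene's mean over the 6 arrays (colour and printed value) for the 9 tested genes (rows) in the Scap_ko arrays (left of the line) and Scap_control arrays (right). The column of Scap_ko replicate 3 is positive in all 9 rows, and Lsp1 is the row positive in every Scap_ko array and negative in every Scap_control array.

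Wider lists of leukocyte genes gave 0 calls. Over 10 lists, 191 genes were listed, 173 had a probe set and 97 were tested. The smallest limma adjusted p was 0.731. At an unadjusted limma p of 0.05, 7 of the 97 were higher and 3 lower, 7.22% and 3.09%, beside the 2.88% and 3.04% of all tested genes. These are not shares of transcripts made by leukocytes alone. Icam1 and Dab2 among the higher genes, and Fabp5 and Kit among the lower, are also made by other cells. In 3 of the 97 a group mean lay below the brightness limit, among them Hcls1, which is 1 of the 7, and without these 3 the count was 6 of 94. All Scap_ko arrays lay above all controls in 6 of the 97 and below them in 3, beside 6.11% and 5.72% of all tested genes. The median log2 difference was 0.04, with 59.8% of the genes positive.

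In a list of myeloid receptors and signalling proteins around the adaptors, 9 of 11 tested genes were positive, with a median log2 difference of 0.19 (0.13 without both arrays numbered 3). Not all of its receptors use the adaptors: Clec7a carries a motif of its own, and Fcgr2b is inhibitory. Clec7a, the beta-glucan receptor Dectin-1, averaged 2232 ± 682 in Scap_ko and 1724 ± 477 in Scap_control lungs (SD, n = 3 each). Fcgr1, the high-affinity IgG receptor that needs Fcer1g, averaged 867.1 in Scap_ko and 705.6 in Scap_control lungs, and Pilrb1, an activating receptor that pairs with Tyrobp, 837.9 in Scap_ko and 717.2 in Scap_control lungs. The Pilrb1 difference of 0.22 was 0.12 without both arrays numbered 3. Syk, named after its values were seen, had a difference of 0.01.

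A list of integrins, their ligands such as Icam1, leukocyte actin regulators and pan-leukocyte genes was positive in 15 of 21 tested genes, with a median of 0.12. Hcls1, an actin regulator of blood cells and a substrate of Syk, read 527.8, 586.3 and 660.2 in Scap_ko lungs, against 363.7, 437.8 and 478.8 in Scap_control lungs. All Scap_ko arrays were above the controls, but the controls lay below the brightness limit and Hcls1 was tested through its higher group. Icam1, the adhesion ligand that leukocyte integrins bind on endothelium and epithelium, averaged 14271 ± 991 in Scap_ko and 11222 ± 549 in Scap_control lungs (SD, n = 3 each; log2 difference 0.35, SE 0.10, limma adjusted p = 0.731).

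Of monocyte and neutrophil genes 7 of 10 tested were positive, with a median of 0.06, which was 0.22 without both arrays numbered 3. Ccr2, the chemokine receptor that monocytes use to leave the marrow, read 1540, 1263 and 1433 in Scap_ko lungs, against 1066, 1168 and 1010 in Scap_control lungs. Its groups did not overlap (log2 difference 0.38, SE 0.11, limma adjusted p = 0.734), and its other bright probe set gave 0.58. Cybb, the catalytic chain of the phagocyte NADPH oxidase, differed by 0.31 (SE 0.19), and Cyba, its partner chain, by -0.02. Of 20 cytokine and chemokine genes only 5 were bright enough to test, and these 5 were positive, with a median of 0.17. Ccl9 differed by 0.46 (SE 0.22) and Ccl6 by 0.56 (SE 0.30), although a second Ccl6 probe set gave 0.18. Without both arrays numbered 3 these differences were 0.11 for Ccl9 and 0.15 for Ccl6, and 4 of the 5 genes were positive.

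Of tissue macrophage genes 10 of 17 tested were negative, with a median of -0.08. Dab2, an endocytic adaptor of macrophages and other cells, averaged 4847 ± 198 in Scap_ko and 3934 ± 325 in Scap_control lungs (SD, n = 3 each; log2 difference 0.30, limma adjusted p = 0.739), and its other bright probe sets gave 0.35, 0.38 and 0.10. On the brightest Dab2 probe set all Scap_ko arrays lay above all controls, as they did in 6.11% of all tested genes. Cd14, the lipopolysaccharide co-receptor, differed by 0.35 (SE 0.14). Lyve1, the hyaluronan receptor of lymphatic vessels and some interstitial macrophages, differed by -0.21 (SE 0.15), or -0.12 without both arrays numbered 3. The C1q chains C1qa, C1qb and C1qc, complement genes of tissue macrophages named after their values were seen, differed by -0.30, -0.21 and -0.27. Their groups overlapped (SE 0.18, 0.14 and 0.15, limma adjusted p = 0.889, 0.899 and 0.874). Of the 7 positive genes of the list, Adgre1 and Mpeg1, also named after their values were seen, differed by 0.15 (SE 0.16) and 0.09 (SE 0.19).

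Among the growth factors and transcription factors of macrophages, 8 of 13 tested were positive, with a median of 0.09. Runx1, which the blood lineages need, differed by 0.30 (SE 0.12), but its other bright probe sets gave -0.08 and -0.29. Cebpa, a factor of granulocytes and also of lung epithelium, differed by -0.34 (SE 0.15), and Cebpb by 0.06. Spi1, the gene of PU.1, named after its values were seen, averaged 1116 in Scap_ko and 954.9 in Scap_control lungs.

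In the alveolar macrophage list 12 of 14 genes had a probe set and only 6 were bright enough to test. Of these 6, 4 were positive, with a median of 0.08 (-0.01 without both arrays numbered 3). Fabp5 differed most and was negative. Fabp5, a fatty acid binding protein made by macrophages and also by alveolar epithelium, averaged 35234 ± 8569 in Scap_ko and 58245 ± 9769 in Scap_control lungs (SD, n = 3 each; log2 difference -0.74, SE 0.19, limma adjusted p = 0.731). Its groups did not overlap. Fabp4 differed by 0.30 (SE 0.36), or 0.07 without both arrays numbered 3.

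In the list of mast cells, basophils and eosinophils, 3 of 4 tested genes were negative, with a median of -0.27. Kit, the stem cell factor receptor that mast cells, progenitors and some endothelial cells carry, averaged 3994 ± 595 in Scap_ko and 5449 ± 140 in Scap_control lungs (SD, n = 3 each; log2 difference -0.46, limma adjusted p = 0.731), and its other bright probe set gave -0.29. Hdc, the histamine-forming enzyme, differed by -0.62 (SE 0.22), or -0.98 without both arrays numbered 3. The other tested genes of the list, Cpa3 and Gata2, named after their values were seen, went in opposite directions. Cpa3 differed by 0.29 (SE 0.47), or 0.05 without both arrays numbered 3, and Gata2 by -0.07 (SE 0.12). Antigen presentation genes were negative in 7 of 9 tested, with a median of -0.12. H2-Aa differed by -0.54 (SE 0.45), Tap1 by -0.14 (-0.07 without both arrays numbered 3) and H2-D1 by -0.08. Other H2-D1 probe sets gave -0.02 to 0.08. Of 17 lymphoid genes with a probe set only Cd79b was bright enough to test (log2 difference -0.01), and dim is not the same as absent.

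**Figure D4:**
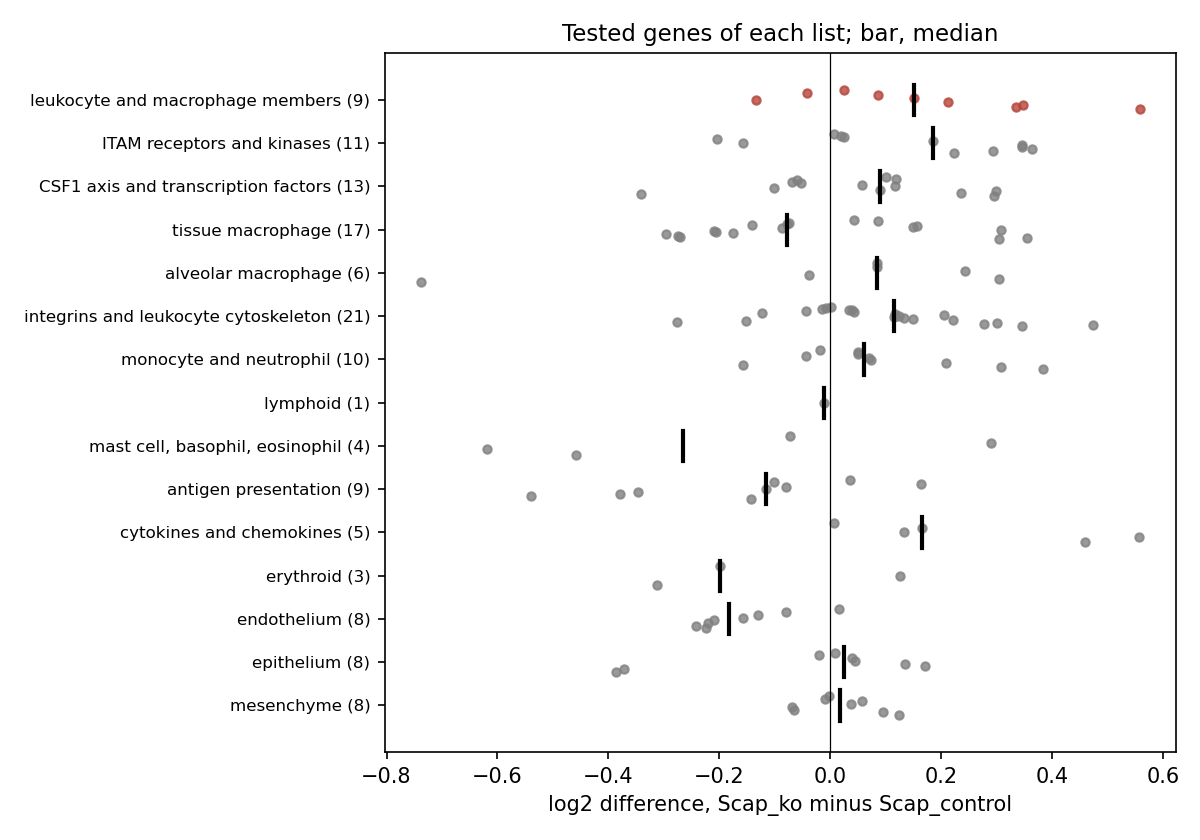
Log2 difference, Scap_ko minus Scap_control (horizontal axis), of each tested gene (points) in the member set (red) and the other lists (grey), with the number of tested genes in brackets and a black bar at the median. The member median is 0.15, and the medians of the tissue macrophage, lymphoid, mast cell, antigen presentation, erythroid and endothelial lists lie below 0.

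Markers of other cells were set beside these results. Endothelial markers were negative in 7 of 8, with a median of -0.18 and summed signals of 82036 to 88622 in Scap_ko and 88981 to 98230 in Scap_control lungs. Genes listed for red cells, at best a rough measure of blood in the sample, were negative in 2 of 3 tested, Alas2 among them (-0.31, SE 0.15). The positive 1 was Tfrc (0.13, SE 0.10), which is not limited to red cells and whose other bright probe set gave -0.02. Summed signals of these 3 genes, Tfrc included, were 18281 to 21458 in Scap_ko and 20236 to 23927 in Scap_control lungs. Epithelial markers were positive in 5 of 8, with a median of 0.02, while Sftpb (-0.39) and Epcam (-0.37) were lower at an unadjusted limma p of 0.05. Summed signals of the 8 epithelial markers, much of them from Sftpc at 97286 in Scap_ko and 97440 in Scap_control lungs, were 219444 to 220783 in Scap_ko and 204198 to 243660 in Scap_control lungs, and those of the 8 mesenchymal markers were 239161 to 248050 in Scap_ko and 213907 to 256700 in Scap_control lungs. No marker read 0 on any array. The part of these cells in the leukocyte readings was not tested.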

How the data were processed

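Whole-lung RNA was labelled with biotin and run on MOE430 V2 arrays, per the labels. The authors deposited intensity values, a linear signal per probe set on each of 6 arrays. The submitters' processing notes name RMA, yet the values are linear, reach down to 0.2 and share a mean of 1500 after trimming 2% at either end, which is not the form RMA gives. Background correction, detection calls and batches are not stated in the material used here. The number of arrays is what limits precision.

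The log2 of the signal was taken with no pseudocount, and 64 control probe sets were left out. Of 45037 others, 34945 carried 1 gene symbol, 932 several and 9160 none. Groups came from the sample titles and were compared with limma 3.58.1 in R 4.3.3 (lmFit, eBayes, no covariate), with Benjamini-Hochberg adjustment over the 10972 genes tested. A second fit took all probe sets without a filter. The steps were tested on simulated data. Alternatives were quantile normalization, other brightness filters, a pseudocount of 100, the mean of a gene's probe sets, an intensity trend, the replicate block and leaving out arrays. The members and lists were chosen with earlier results of these data known. Named genes were, per list, the 2 of smallest p and the brightest, and the 8 with the most similar array pattern, beside genes stated as named after their values were seen.

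Both groups carry the numbers 1 to 3 in the titles. Across genes, the deviations of same-numbered samples from their group means had correlations of 0.17, 0.20 and 0.43. Each exceeds 0.1, so the pairing was accepted, from the titles and the data alone. Scap_ko1 correlated as closely with Scap_control2 (0.18) as with Scap_control1, and Scap_ko2 had 0.08 with Scap_control1. Correlations of arrays numbered 3 with those numbered 1 or 2 were -0.20 to -0.30. The data thus set only the arrays numbered 3 apart, and the pairing of numbers 1 and 2 rests on the titles. The meaning of a number is unknown. Promoter sequences are RefSeq's, in GRCm38.p6.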

Additional observations from a re-analysis of the deposited data

How the results depend on the processing

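No member passed the threshold under any of the 14 alternatives, and Lsp1, Tyrobp, Fcer1g and (in the 13 that tested it) Ptprc kept a positive difference. With the mean of all probe sets per gene, where dim probe sets enter, 8 members were tested and the difference turned to 0.0065 for Csf1r, -0.22 for Laptm5 and -0.52 for Coro1a. Without both arrays numbered 3, Cd68 turned to -0.051. Leaving out 1 array at a time gave -0.068 to 0.096 for Cd68, -0.036 to 0.17 for Coro1a and -0.19 to 0.10 for Mrc1. Cd68 was negative without Scap_ko replicate 3 or Scap_control replicate 2, Coro1a without Scap_control replicate 2, and Mrc1 was positive without Scap_ko replicate 2. The cause was not tested. The median of the members, 0.15, lay between 0.03 and 0.26 when 1 array was left out and was 0.015 with the mean of probe sets. The SD of the members' mean between arrays of a group was 0.16. That is of similar size to the median. It is the spread of single arrays without the pairing, so it does not measure the precision of the median difference. With the replicate block the median was 0.15. The count over all tested genes, 1, became 0 with no brightness filter, with the 75th percentile filter, with the intensity trend, with the replicate block and without both arrays numbered 3, and lay between 0 and 1 when 1 array was left out. Without detection calls, nothing firm can be said of the 5 dim probe sets, that of Itgam among them.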
